A study of Mus musculus with 28 samples.

Results

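The nuclear genes of the mitochondrial respiratory chain were examined for open promoters in Müller cells, the main glial cells of the retina. The genes were chosen by name among the protein-coding genes of the 19 autosomes in the GENCODE M21 annotation, and 90 of 20780 genes were taken. They begin with Nduf (complex I, its assembly factors, and Ndufa4 with its relative Ndufa4l2), are Sdha, Sdhb, Sdhc or Sdhd (complex II), or begin with Uqcr (complex III), Cox4 to Cox8 (complex IV, cytochrome c oxidase) or Atp5 (complex V, the ATP synthase). ATAC-seq, in which a transposase cuts accessible DNA, had been performed on cells from mice at 6 months of age. One group carried the db/db genotype, in which both copies of Lepr, the gene of the leptin receptor, are mutated on the BKS background, and which leads to obesity and type 2 diabetes, and the control group was labelled WT. The study's methods state that wild-type and db/+ mice served as controls, that mice of both sexes were used, and that the mice descended from the stocks of more than 1 supplier. Müller cells were taken as the CD29+ fraction of a magnetic sort after CD11b+ and CD31+ cells had been removed, a fraction that may also hold some astrocytes.

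Electrons from NADH enter the chain at complex I and those from succinate at complex II. They pass through complex III to complex IV, where oxygen is reduced, and the proton gradient built on the way drives complex V. A few central subunits are encoded by mitochondrial DNA and all others by nuclear genes, so that the promoters described here drive most of the subunits. Several subunits of complex IV have a broadly used isoform and a further isoform restricted to muscle, lung or testis, or induced by low oxygen. In the retina, photoreceptors are known for their high mitochondrial content, whereas Müller cells rely largely on glycolysis.

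The data were 1 list of accessible regions per genotype, attached to the first of 2 samples of each group. Values between the genotypes therefore have no replicate check and are given without p-values. After rows that overlap had been merged, the control list held 46189 regions and the db/db list 64883 regions. The db/db list was longer at its weak end, with a median peak signal (the enrichment ratio given for each peak) of 8.60 against 10.6 in the control list. Signals were therefore expressed as percentiles among all regions of the same list, and a promoter was called open when a region had its summit at most 1 kb from a transcription start site (TSS) that the annotation gives for the gene. Read depth was not analysed here, and intervals for shares cover counting error only. Of 10 Müller cell markers, 9 in the control list and 10 in the db/db list were open, with a summed signal of 76.4 and 76.5. Of 10 rod photoreceptor markers, 9 and 6 were open, and their summed signal was 67.4 in the control list and 37.4 in the db/db list. The 6 microglial markers had 1 open promoter and the 6 endothelial markers 3 in either list. The part of rod chromatin in the results below was not tested.

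Nearly all respiratory chain promoters were open. In the control list 84 of the 90 genes had a region at the promoter, which is 93.3% (95% Wilson interval 86.2% to 96.9%), against 59.7% of the other coding genes (12345 of 20690). In the db/db list 85 of 90 were open, 94.4% (87.6% to 97.6%), against 62.8% of the other genes (12991 of 20690). No region served more than 1 of the 90 genes in either list. Of the genes without a region, 5 were isoforms known to be restricted to particular tissues or conditions, namely Cox6a2, Cox7b2, Cox8b, Cox8c and Ndufa4l2, and these had none in both lists. The remaining gene was Cox6c, which encodes a broadly used subunit of complex IV. Without the 8 restricted isoforms, 81 of 82 promoters were open in the control list and 82 of 82 in the db/db list.

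The open promoters also ranked high. Their median signal percentile was 87.2 in the control list (quartiles 68.6 to 94.9, n = 84 genes) and 89.5 in the db/db list (73.4 to 95.6, n = 85 genes). Other open coding promoters had medians of 78.3 (54.1 to 91.4) and 80.8 (60.2 to 92.4). The 95% interval of the median over the respiratory chain genes was 79.5 to 92.0 in the control list and 82.1 to 92.6 in the db/db list. Among coding promoters alone, where the middle of the scale is the typical open promoter, the medians were 65.7 and 67.6. Percentile 90 was reached by 37 of the 84 promoters (44.0%) in controls and 41 of 85 (48.2%) in db/db, compared with 28.1% and 30.9% of the other open promoters. The spread was wide, since 13 control promoters (15.5%) and 8 db/db promoters (9.41%) fell below percentile 50.

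**Figure D1:**
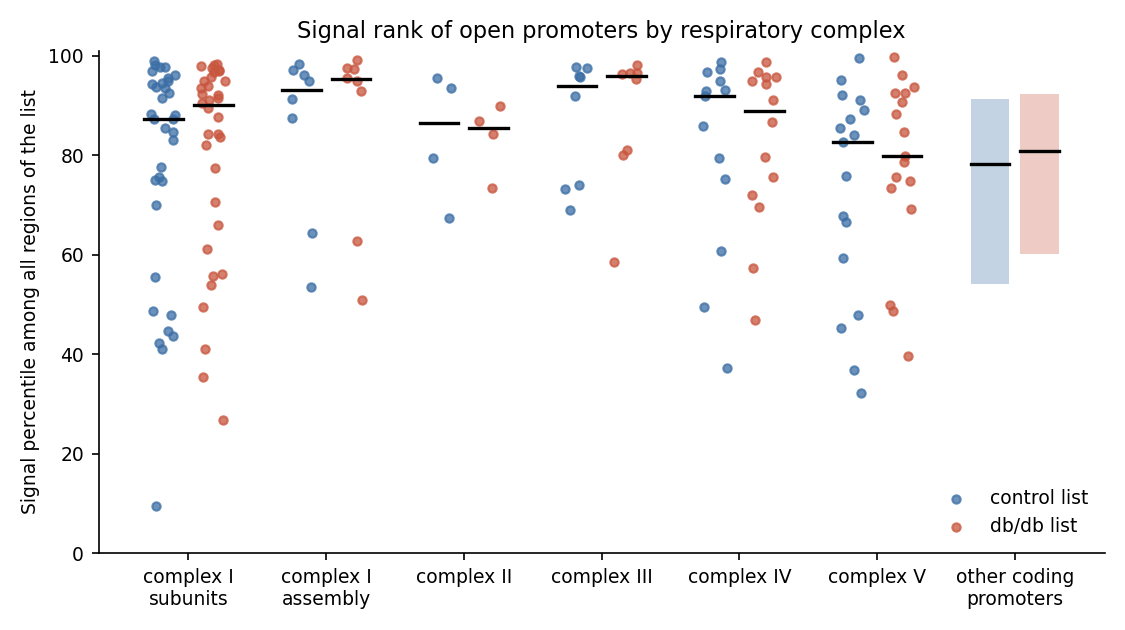
Signal percentile (0 to 100, vertical axis) of each open respiratory chain promoter among all regions of its list, grouped by complex, with the control list in blue and the db/db list in red. Points are genes, black lines are medians, and shaded bars span the quartiles of the other open coding promoters; complex V medians (82.6 and 79.9) lie closest to the line of the other promoters (78.3 and 80.8).

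Complex I receives electrons from NADH. All 34 genes of its subunits were open in both lists, with median percentiles of 87.2 in controls and 90.0 in db/db. Ndufv1, which encodes the subunit that binds NADH, had a signal of 21.0 (percentile 94.5) in the control list and 20.5 (96.7) in the db/db list. Ndufs1, the largest iron-sulphur subunit, was much lower, with 9.92 (percentile 44.6) and 7.61 (41.1), at a region that it shared with Eef1b2. Of these 2 genes of the same catalytic arm, the first ranked above the upper quartile of other open promoters in both lists and the second below their lower quartile. The highest accessory subunit in the control list was Ndufa3 with 25.9 (98.9), and it had 20.8 (97.0) in the db/db list, where Ndufv3 ranked above it (98.1). The lowest accessory subunit was Ndufb10 with 5.83 (9.52) and 6.24 (26.7), the weakest open promoter of the 90 genes in either list. The 8 Ndufaf genes, whose products help to assemble the complex, were all open, with medians of 93.2 and 95.3. They ranged in the control list from Ndufaf3 (11.1, percentile 53.5) to Ndufaf7 (24.6, percentile 98.3), a methyltransferase gene whose region is shared with Cebpz.

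Complex II oxidises succinate and also belongs to the citric acid cycle, and all 4 of its genes were open. Sdha, which encodes the flavoprotein, had a signal of 15.5 (percentile 79.4) in controls and 14.7 (84.2) in db/db. Sdhb, the iron-sulphur subunit, had 13.1 (67.3) and 12.1 (73.5). The membrane anchor genes ranked above both in the control list, Sdhc with 21.7 (95.5) and Sdhd with 20.4 (93.5), and reached 15.5 (86.8) and 16.5 (89.8) in the db/db list. Complex III had all 8 of its Uqcr genes open, with medians of 93.8 and 95.8. Uqcr10, which encodes a small subunit, was highest in the control list with 24.0 (97.8) and had 20.2 (96.4) in the db/db list. Uqcrfs1, the Rieske iron-sulphur protein, had 22.1 (95.9) and 20.3 (96.5). Uqcrc1, a core protein of the complex, was lowest in the control list with 13.4 (68.9) and had 13.6 (80.1) in the db/db list.

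Complex V makes ATP, and all 17 of its genes were open. Its medians were 82.6 in controls and 79.9 in db/db, with 4 of 17 genes (23.5%) at or above percentile 90 in the control list and 6 of 17 (35.3%) in the db/db list, against 28.1% and 30.9% of other open promoters. The catalytic β subunit gene Atp5b had a signal of 19.2 (percentile 91.0) in the control list and 17.8 (92.6) in the db/db list. The α subunit gene Atp5a1 had 14.7 (75.9) and 13.2 (78.6). Atp5e, the ε subunit, was the strongest of all 90 promoters in both lists with 27.8 (99.5) and 27.0 (99.7). Atp5d, the δ subunit of the same central stalk, was the weakest of complex V with 8.51 (32.2) and 7.45 (39.6). When only the 5′ end of the gene was taken as TSS, Atp5d fell to percentiles 0.928 and 6.94. The c subunit, which forms the rotating ring, is encoded by 3 genes, and in the control list Atp5g1 ranked at 82.6, Atp5g3 at 67.8 and Atp5g2 at 45.3.

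Complex IV was the only complex with closed promoters. Of its 19 genes, 13 were open in the control list (68.4%, Wilson interval 46.0% to 84.6%) and 14 in the db/db list (73.7%, 51.2% to 88.2%). Cox5a and Cox5b, subunits with no muscle isoform, had signals of 22.7 (percentile 96.7) and 20.1 (93.0) in controls, and of 20.5 (96.7) and 17.1 (91.1) in db/db. Cox6c had no summit within 1 kb in the control list, where the nearest lay 6618 bp away. In the db/db list it had a region of 723 bp with a signal of 8.23 (percentile 46.8), 52 bp from the TSS. It was the only one of the 90 genes found open in 1 list alone, whereas 3.55% of the other coding genes were open in the db/db list only. Ranked among all db/db regions, this promoter stood below the middle of the list.

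Broadly used isoforms of complex IV subunits were open more often than restricted ones. All 6 broadly used genes (Cox4i1, Cox6a1, Cox6b1, Cox7a2, Cox8a and Ndufa4) were open in both lists, with signals of 14.6 to 25.2 in controls and 11.9 to 23.2 in db/db. Of the 8 restricted genes, 3 were open in both lists (37.5%, Wilson interval 13.7% to 69.4%), an interval that includes the shares of other coding genes, 59.7% and 62.8%. These 3 had signals of 9.08 to 12.1 and 9.51 to 12.6. The ranges of the 2 sets did not overlap in the control list. In the db/db list Cox6b2 (12.6) exceeded Cox4i1 (11.9), whose region also serves Emc8 and Gm27021.

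**Figure D2:**
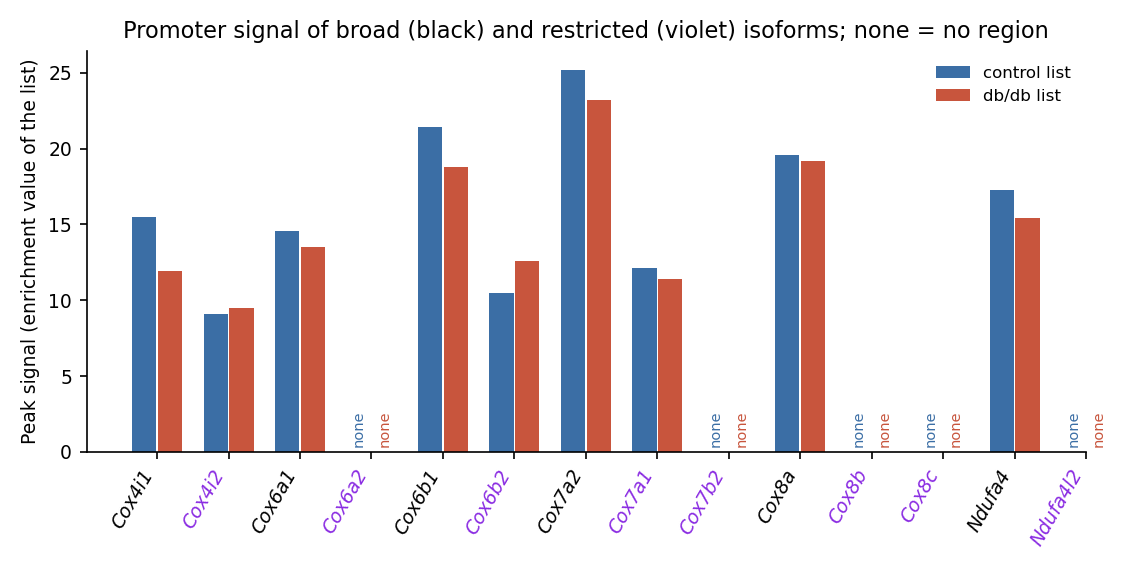
Peak signal at the promoters of broadly used isoforms (black names) and restricted isoforms (violet names), in the control list (blue bars) and the db/db list (red bars), from 1 list each and so without error bars. The word none marks a promoter with no region within 1 kb; it applies to Cox6a2, Cox7b2, Cox8b, Cox8c and Ndufa4l2 in both lists, and bars of the other restricted genes reach 9.08 to 12.6.

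Cox4i2, the isoform known from lung and induced by low oxygen, had a signal of 9.08 (percentile 37.2) in controls and 9.51 (57.3) in db/db, and its partner Cox4i1 had 15.5 (79.5) and 11.9 (72.1). The strongest Cox4i2 region in the control list had its summit 366 bp inside the gene. A nearer and weaker region, if taken instead, ranked at 3.25 and 1.64. Cox7a1, the heart and skeletal muscle isoform, had 12.1 (60.8) and 11.4 (69.5), against 25.2 (98.7) and 23.2 (98.7) for Cox7a2. Cox6b2, known from testis, had 10.5 (49.4) and 12.6 (75.6), against 21.4 (95) and 18.8 (94.4) for Cox6b1. The muscle isoform genes Cox6a2 and Cox8b were closed. The nearest summit lay 1962 bp upstream of Cox6a2 in the control list and 1960 bp upstream in the db/db list, and 8330 bp and 2947 bp upstream of Cox8b. The counterpart Cox6a1 had 14.6 (75.3) and 13.5 (79.7), and Cox8a had 19.6 (92.0) and 19.2 (95). For Cox8c, a testis isoform, the nearest summits lay 13360 bp and 13355 bp upstream, and for Cox7b2, also known from testis, they lay 109790 bp and 58863 bp upstream. Ndufa4l2, induced by low oxygen, had its nearest summits 1913 bp upstream in controls and 1820 bp downstream of the TSS in db/db. Its relative Ndufa4 had 17.3 (85.9) and 15.4 (86.7) at a region shared with Phf14.

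The promoter sequences of some broadly used and some restricted isoforms are printed. They are the 250 bases before the start given by RefSeq for build GRCm38.p6, 5′ to 3′ on the strand of the gene, with every match to 8 short strings in capitals on either strand. The strings were GCGCATGC (the NRF1 motif), CCGGAAG (ETS factors such as GABPA), AAGATGG (YY1), GGGCGG (SP1 and related factors), CCAAT (the CCAAT box), TATAAA (the TATA box), TGACGTCA (CREB) and TCAAGGTCA (oestrogen-related receptors). A match is a description of letters and not a binding site. The broadly used Cox6a1 (chr5:115348959-115349208, minus strand) holds 2 overlapping NRF1 strings from base -162, an ETS string at -16, a CCAAT at -74 and SP1 strings at -139 and -44. Cox8a (chr19:7217617-7217866, minus strand) has a CCAAT at -171 and 2 ETS matches that end after the start. Cox8b (chr7:140900447-140900696, minus strand), closed in both lists, holds no match before the start and a TATAAA that ends after it.
Cox6a1: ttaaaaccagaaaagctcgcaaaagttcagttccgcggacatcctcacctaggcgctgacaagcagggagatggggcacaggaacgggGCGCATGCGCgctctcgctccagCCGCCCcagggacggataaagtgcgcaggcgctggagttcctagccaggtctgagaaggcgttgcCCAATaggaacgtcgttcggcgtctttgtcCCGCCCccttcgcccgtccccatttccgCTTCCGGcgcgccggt
Cox8a: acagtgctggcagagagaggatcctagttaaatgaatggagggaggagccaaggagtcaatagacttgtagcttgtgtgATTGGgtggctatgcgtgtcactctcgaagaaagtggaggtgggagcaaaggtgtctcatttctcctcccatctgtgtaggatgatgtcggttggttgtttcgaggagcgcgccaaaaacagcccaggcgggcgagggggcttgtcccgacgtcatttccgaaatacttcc
Cox8b: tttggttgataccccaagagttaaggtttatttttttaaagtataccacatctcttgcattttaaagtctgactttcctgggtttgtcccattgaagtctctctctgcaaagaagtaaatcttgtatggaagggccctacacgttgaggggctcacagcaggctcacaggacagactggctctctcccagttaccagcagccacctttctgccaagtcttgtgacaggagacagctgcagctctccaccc
The open pair Cox7a2 (chr9:79759854-79760103, minus strand) and Cox7a1 (chr7:30183921-30184170, plus strand) was added after the table had been seen. Cox7a2 has an SP1 string at -44, and Cox7a1 has CCAAT strings at -137 and -74.
Cox7a2: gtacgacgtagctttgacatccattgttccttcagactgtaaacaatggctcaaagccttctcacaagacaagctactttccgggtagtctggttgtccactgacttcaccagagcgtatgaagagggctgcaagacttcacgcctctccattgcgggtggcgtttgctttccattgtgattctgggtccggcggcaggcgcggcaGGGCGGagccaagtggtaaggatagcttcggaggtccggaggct
Cox7a1: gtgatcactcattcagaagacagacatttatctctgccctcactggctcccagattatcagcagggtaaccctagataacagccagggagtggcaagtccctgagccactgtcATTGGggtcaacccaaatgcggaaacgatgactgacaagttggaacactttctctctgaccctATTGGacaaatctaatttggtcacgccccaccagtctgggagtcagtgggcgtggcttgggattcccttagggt
Core subunits of complex II and complex V are shown for comparison, Sdha (chr13:74350241-74350490, minus strand) with a CCAAT at -185 and Atp5b (chr10:128083057-128083306, plus strand) with 5 CCAAT and 2 SP1 strings.
Sdha: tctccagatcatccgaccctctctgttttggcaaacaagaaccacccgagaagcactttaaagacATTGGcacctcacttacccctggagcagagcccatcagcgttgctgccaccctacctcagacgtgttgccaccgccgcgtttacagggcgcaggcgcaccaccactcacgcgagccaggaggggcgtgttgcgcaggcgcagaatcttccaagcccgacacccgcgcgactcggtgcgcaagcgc
Atp5b: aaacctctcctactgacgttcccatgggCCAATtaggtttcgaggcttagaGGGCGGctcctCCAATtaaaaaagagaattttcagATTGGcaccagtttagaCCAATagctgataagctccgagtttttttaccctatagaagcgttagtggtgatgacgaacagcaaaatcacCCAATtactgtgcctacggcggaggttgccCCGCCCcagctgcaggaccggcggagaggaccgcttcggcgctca
Cox8b and Cox7a1 contain few CpG dinucleotides. The ratio of observed to expected CpG over the 300 bases around the start (250 before, 50 after) was 0.115 for Cox8b and 0.333 for Cox7a1, against 0.842 for Cox8a and 0.833 for Cox7a2. It was 0.432 for Cox6b2 and 0.564 for Cox7b2, so that all 4 restricted isoforms with a sequence lay below the median of 0.609 over the other coding promoters. Some open promoters of other respiratory chain genes also lay below it, such as Ndufa3 (0.558) and Sdhb (0.571). The lower quartile over the 71 respiratory chain promoters with a sequence was 0.671. Restricted isoforms that are not printed did hold strings in these 300 bases. Cox6b2 had 1 SP1 and 3 CCAAT strings, and the closed Cox7b2 had 1 SP1, 3 CCAAT and 1 TATAAA. The broadly used Cox7a2 had 1 SP1 string.

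The same 300 bases were compared over all genes with a RefSeq entry, 71 of the 90 respiratory chain genes and 15616 other coding genes. The median ratio of observed to expected CpG was 0.829 in the respiratory chain promoters, 0.776 in other promoters open in the control list and 0.609 in all others. GC content had medians of 58.3%, 61.7% and 57.0%. The NRF1 string was found in 12 of 71 respiratory chain promoters, or 16.9% (Wilson interval 9.94% to 27.3%), against 5.62% of other open promoters and 3.73% of all others. Among its carriers were Sdhb, Uqcrc1, Cox6a1, Atp5g2 and 2 of the assembly factor genes, Ndufaf4 and Ndufaf5. The ETS string was in 17 (23.9%, 15.5% to 35.0%), against 18.4% and 12.5%, and the YY1 string in 10 (14.1%, 7.83% to 24.0%), against 7.14% and 6.39%. The SP1 string was less frequent than in other open promoters, in 32 of 71 (45.1%, 34.0% to 56.6%) against 66.6%, and close to all others (48.6%). The interval of the ETS share includes the share of other open promoters, and that of the YY1 share does not. The YY1 string was in 14.5% of promoters of cytosolic and 18.8% of mitochondrial ribosomal protein genes. For the NRF1 string these shares were 3.23% and 11.6%. CCAAT was in 43.7% against 38.7% and 38.4%, TATAAA in 9.86% against 6.31% and 12.9%, the CREB string in 5.63% against 3.45% and 2.47%, and the oestrogen-related receptor string in 2 promoters, Sdhd and Atp5g3 (2.82%), against 0.239% and 0.333%. Among the 69 respiratory chain promoters open in the control list, TATAAA was in 7.25%.

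**Figure D3:**
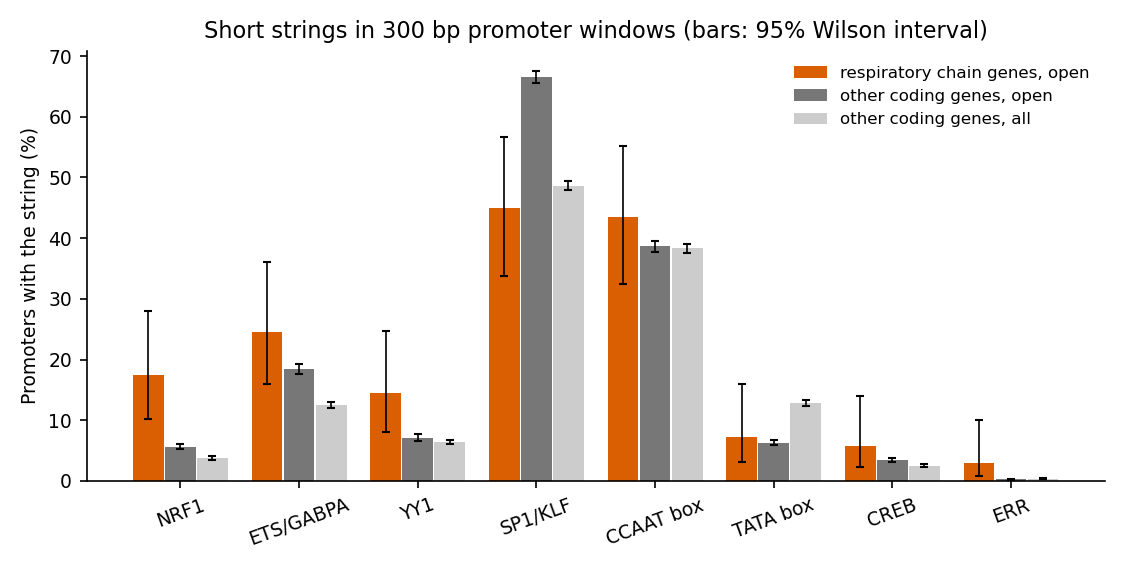
Share of 300-base promoter windows (%, vertical axis) that hold each of 8 strings on either strand, for respiratory chain promoters open in the control list (orange, 69 promoters), other open coding promoters (dark grey) and all other coding promoters (light grey); bars show the 95% Wilson interval. The NRF1 interval of the orange bar, 10.2% to 28.0%, lies above both grey bars, and its SP1 interval, 33.8% to 56.6%, lies below the dark grey bar.

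An NRF1 or ETS string was in 24 of 71 respiratory chain promoters (33.8%), in 22.9% of other open promoters and in 15.5% of all others. Ribosomal protein genes, another set used in every cell, had a higher share, 41.9% for the cytosolic and 42.0% for the mitochondrial ribosome. Among open respiratory chain promoters, the median control percentile was 86.3 for the 24 with such a string and 88.1 for the 45 without one. Among other open promoters it was 85.2 for the 2205 with a string and 77.0 for the 7418 without, so that the difference in rank seen there was not seen within the respiratory chain genes.

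Regions at respiratory chain promoters were somewhat narrower than others in the control list. Their median width was 885 bp in the control list (range 468 to 1879 bp) and 935 bp in the db/db list, against 964 bp and 958 bp at other open promoters. The 95% interval of the control median, 855 to 939 bp, lay below 964 bp, whereas that of the db/db median, 834 to 984 bp, included 958 bp. Mitochondrial ribosomal protein genes had medians of 846 bp and 831 bp, and 23.7% and 29.9% of their regions held only 1 row of the list. At respiratory chain genes 34 of 84 control regions (40.5%) held only 1 row, compared with 30.1% of other promoters. In the db/db list the shares were 47.1% and 31.6%. Among control regions with 1 row the order of the widths was the opposite, with a median of 787.5 bp against 744 bp. Whether the number of merged peaks accounts for the narrower width was not tested. The widest region of the 90 genes was that of Uqcrh, 1879 bp in controls and 2152 bp in db/db, where it also serves Lrrc41. Atp5d had the narrowest, 468 bp and 490 bp.

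Summits lay close to the TSS. The median position of the summit (below 0 is upstream) was -33.5 bp in the control list and -29 bp in the db/db list, and 71 of 84 control summits (84.5%) fell within 100 bp of a TSS, against 69.1% at other open promoters. In the db/db list it was 72 of 85 (84.7%) against 66.7%. Similar shares were found at mitochondrial ribosomal protein genes (84.2% and 87.0%) and cytosolic ribosomal protein genes (80.8% and 82.1%). Exceptions were Ndufa11 and Ndufa13, whose control summits lay 673 bp and 719 bp upstream at regions that also serve Vmac and Yjefn3. Many of these genes have a close neighbour. In the control list 32 of 84 regions (38.1%) also served another coding gene, against 20.3% at other open promoters, and the share at mitochondrial ribosomal protein genes was 42.1%. Examples are Ndufa7 with the ribosomal protein gene Rps28, Ndufs6 with the mitochondrial ribosomal protein gene Mrpl36, and Atp5j with Gabpa, which encodes the DNA-binding part of the ETS factor GABP. At such a region the signal cannot be assigned to either gene.

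**Figure D4:**
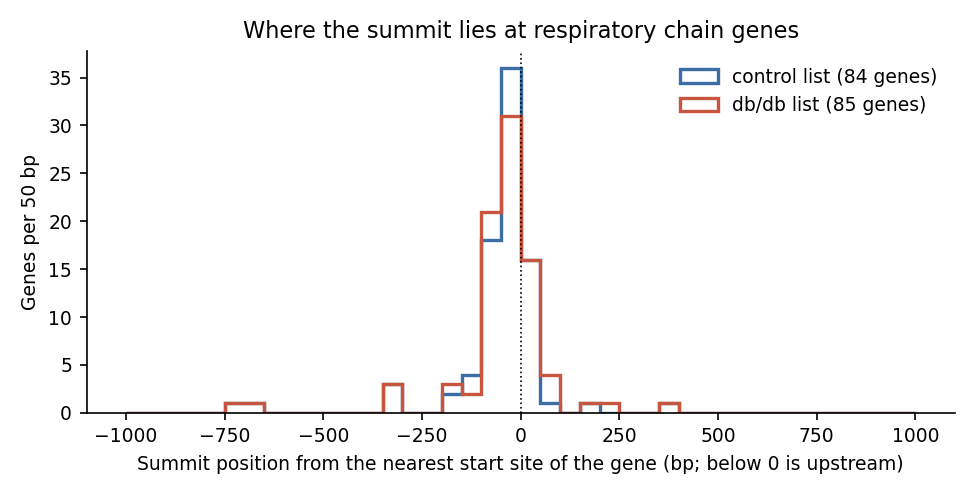
Number of respiratory chain genes per 50 bp (vertical axis) by the distance of the region's summit from the nearest TSS of the gene (horizontal axis, bp, below 0 upstream), in the control list (blue, 84 genes) and the db/db list (red, 85 genes). Summits gather just upstream of the TSS, with 71 and 72 of them within 100 bp.

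Between the genotypes, open respiratory chain promoters differed at 1 gene, Cox6c. All 84 promoters open in the control list were open in the db/db list, their regions all overlapped, and the summits differed by a median of 7 bp. Other coding genes were close to this. Of 12345 open in the control list, 89 were not open in the db/db list. Of 12256 open in both, 11998 had overlapping regions, with a median summit difference of 8 bp. In 74 of the 84 (88.1%) the summit moved by at most 20 bp, against 83.0% of other promoters open in both lists. The summit moved furthest at Ndufs7 (289 bp) and Ndufs4 (212 bp). Ranks differed little. The percentile was higher in db/db at 59 genes (70.2%, against 75.4% of other promoters) and lower at 25. The median difference (db/db minus control) was 1.43 points (quartiles -0.573 to 6.69). Its 95% interval, 0.581 to 2.67, describes the uncertainty of the median over genes and not the spread between mice. Other coding promoters had a larger median difference of 3.13 points. The sign of this shift depended on the number of regions in the db/db list. When only as many of its regions were used as the control list holds, taken by the highest −log10 p, 20 genes were higher and 63 lower. The median was then -1.78 points for the respiratory chain (interval over genes -3.11 to -0.725) and -1.84 for the others. Among promoters with control percentiles between the quartiles of the respiratory chain genes, the medians were 2.14 points (42 genes) and 2.17 points (5719 genes).

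A difference of at least 10 points was used to name changes in rank. It was reached upwards by 11 of 84 promoters (13.1%), against 24.2% of other promoters, and downwards by 3 (3.57%), against 1.75%. With lists of equal numbers the counts were 3 upwards and 13 downwards, against 4.36% and 16.1% of others. The size of the difference varied with the rank in the control list. The 21 below the lower quartile had a median difference of 8.70 points, against 11.5 points for other promoters in that range, and the 21 above the upper quartile one of 0.0769 points, against 0.0974 points. With lists of equal numbers the direction of the low-ranked promoters was reversed, with a median of -4.19 points (4 higher and 16 lower), against -3.18 points for the others.

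**Figure D5:**
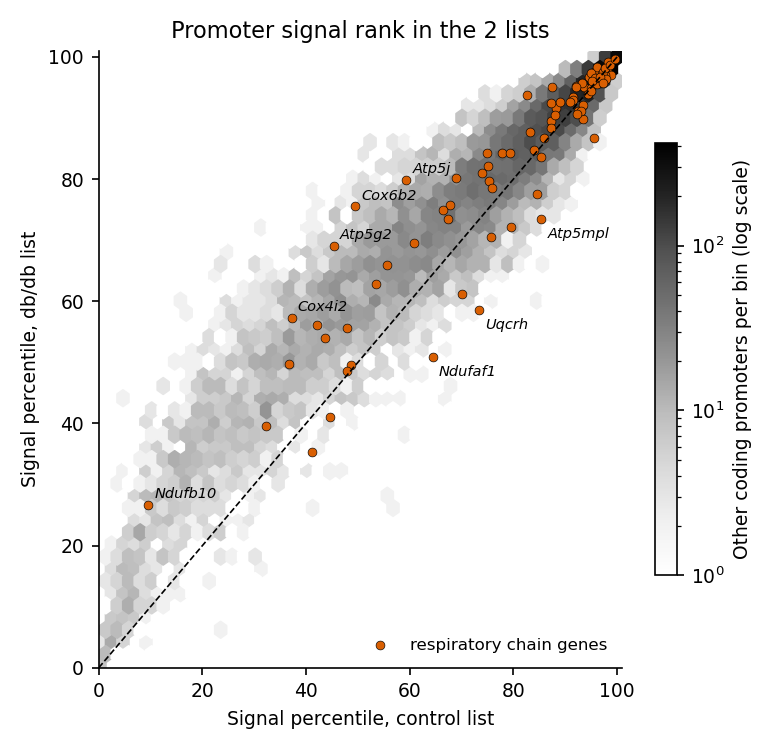
Signal percentile of promoters open in both lists, control list on the horizontal and db/db list on the vertical axis, for 84 respiratory chain genes (orange points) and 12256 other coding genes (grey hexagons, darker for more genes on a log scale). The dashed line marks equal rank; the named points above it include Cox6b2 and Atp5g2, those below it Uqcrh and Ndufaf1, and the named points lie within the spread of the grey hexagons.

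The largest upward differences were at Cox6b2, Atp5g2, Atp5j, Cox4i2 and Ndufb10. At Cox6b2 the signal was 10.5 in controls and 12.6 in db/db, and the percentile 49.4 and 75.6, a difference of 26.2 points. Atp5g2, a c subunit gene of the ATP synthase, had 10.0 (percentile 45.3) and 11.3 (69.1), and with only the 5′ end of the gene as TSS it had percentiles of 10.5 and 39.0. With lists of equal numbers the differences were still upward, with 16.4 points at Cox6b2, 11.4 at Atp5g2 and 12.5 at Atp5j. Atp5j, which encodes coupling factor 6, had 11.9 (59.3) and 13.5 (79.9) at the region shared with Gabpa. Cox4i2 and Ndufb10 were 20.1 and 17.2 points higher in db/db, and with lists of equal numbers their differences were 2.86 and -0.119 points.

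The largest downward differences were at Uqcrh, Ndufaf1, Atp5mpl, Ndufb8 and Sdhc. Uqcrh, the hinge protein gene of complex III, had a signal of 14.2 (percentile 73.3) in controls and 9.70 (58.6) in db/db, a difference of -14.7 points. Ndufaf1, a complex I assembly factor gene, had 12.7 (64.4) and 8.70 (50.9). Atp5mpl, a small proteolipid gene of complex V, had 17.1 (85.4) and 12.1 (73.4), Ndufb8 had 13.6 (70.0) and 10.1 (61.2), and Sdhc had 21.7 (95.5) and 15.5 (86.8). With lists of equal numbers, where most genes were lower in db/db, the differences were -31.4 points at Uqcrh, -33.5 at Ndufaf1, -22.7 at Atp5mpl, -24.5 at Ndufb8 and -14.0 at Sdhc, and Ndufs1, at -25.9 points, then lay below Sdhc. Among members of the same complexes, Uqcrc1 was 11.2 points higher in db/db with the whole lists and 3.16 points higher with lists of equal numbers. Sdhb was 6.22 points higher with the whole lists, but its difference was -4.49 points with lists of equal numbers, where all 4 genes of complex II were lower. With 1 list per genotype it cannot be said whether any of these differences exceeds the spread between mice.

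Further genes of the pathway, taken from a list, had open promoters almost without exception. Cyc1, the gene of cytochrome c1 in complex III, and Cycs, the gene of the electron carrier cytochrome c, had percentiles of 99.5 and 96.8 in controls. In db/db they had 99.6 and 96.3. Of 33 assembly factor genes 32 were open in both lists, with medians of 86.3 and 88.7, and Sdhaf1, an assembly factor of complex II, was the gene without a region. The widest gap between lists was at Uqcc3, an assembly factor of complex III, with 53.9 and 87.4, and Cox17, a copper chaperone for complex IV, had 89.6 and 76.9. All 12 genes of regulators were open, with medians of 83.3 and 83.0. Among these, Tfam, which packages mitochondrial DNA, had percentiles of 98.9 and 99.4, and Nrf1 had 83.1 and 83.7. Ppargc1a, a coactivator of mitochondrial genes, ranked lower with 38.6 and 58.9. Cytosolic ribosomal protein genes, for comparison, had 78 of 88 promoters open in either list (88.6%) with medians of 86.9 and 88.2, and mitochondrial ribosomal protein genes 76 and 77 of 78 with medians of 84.4 and 85.2, so that the high rank of the respiratory chain promoters was shared by these sets.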

How the data were processed

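ATAC-seq reads (2 × 50 bp) of purified Müller cells had been made into peak lists by the authors. The build is mm10 in the submitters' processing notes. Peak caller, threshold and pooling of replicates are not given in the sources used here. The deposited columns hold a score, which was not used, an enrichment ratio called signal here, and the −log10 of p and of q.

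Overlapping rows were merged with Python 3.11.15, numpy 2.4.6 and scipy 1.17.1, keeping the row with the highest signal. The region with the highest signal within 1 kb of any TSS of a gene (GENCODE M21) was its promoter. Percentiles are mid-ranks. Figures used matplotlib 3.10.9. Intervals of medians come from order statistics over genes, and no test was made, with 1 list per genotype. The steps were tested on simulated data. Alternatives were other TSS rules, thresholds, ranks and gene sets, and 2 were added after seeing the data.

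The members and lists were chosen with earlier results of these data known. Named genes were the isoforms and their counterparts, 10 core subunits, genes without a region, the 5 largest upward and downward differences, and the highest and lowest of each complex; Ndufa7, Ndufa11, Ndufa13, Ndufs4, Ndufs6, Ndufs7, Sdhd, the other c subunit genes, the genes named for strings and the further pathway genes were chosen after their values were seen. RefSeq entries matched 71 of 90 genes, and the first entry of a gene was used; for 64 of them the transcribed bases were found in an annotated transcript. The second ATAC-seq sample of each genotype and the RNA-seq samples were not analysed here.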

Additional observations from a re-analysis of the deposited data

How the results depend on the processing

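No paired analysis was possible because each genotype has 1 list, and no result comes from a test. Lists of equal numbers turned the median difference from 1.43 to -1.78 points. Then 3 promoters (3.61%) were at least 10 points higher and 13 (15.7%) lower in db/db, against 4.36% and 16.1% of others. Among coding promoters only, the medians were 65.7 and 67.6. On that scale 7 promoters (8.33%) were at least 10 points higher and 9 (10.7%) lower, against 15.0% and 6.75% of others. Ranked by −log10 p, 5 promoters were higher, a count given without the share of other promoters. Counting only regions that serve no other coding gene left 52 and 53 open promoters, by construction. Regions of 1 row, an alternative added after seeing the data, had a median width of 787.5 bp. These are 11 of 84 alternative values of the summary results; the other 73 moved by less than the interval of the value or 1.5 times the count. They include summits within 500 bp of the TSS (82 and 83 open) and the 5′ end of the gene only (83 and 84 open). Of 588 alternative percentiles of named genes, 144 moved beyond the limits set for them. The number of peaks, which differs between the lists, limits every comparison of ranks, and its cause was not tested.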

Other observations

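Genes of the same names on the X chromosome, which the choice of genes leaves out, were mixed. Ndufa1 had percentiles of 63.6 in controls and 57.7 in db/db, and Ndufb11 had 69.9 and 81.9. Cox7b, which encodes a broadly used subunit of complex IV, had no region within 1 kb of a TSS in either list. Whether each list comes from male or female mice is not given in the sources used here.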
